A study of Sus scrofa with 24 samples.

Results

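The family of miR-148 and miR-152 was followed through the differentiation of pig subcutaneous (BF) and intramuscular (IMF) preadipocytes. Its members were all rows of the deposited miRNA table named ssc-miR-148a, ssc-miR-148b or ssc-miR-152, with any arm suffix. There were 5 such entries among 1587: ssc-miR-148a-3p, ssc-miR-148a-5p, ssc-miR-148b-3p, ssc-miR-148b-5p and ssc-miR-152. The names 3p and 5p denote the arm of the hairpin precursor from which the mature strand is cut.

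The cells came from 6-day-old Yorkshire piglets, the BF cells from fat under the skin of the back and the IMF cells from the longissimus dorsi muscle. Both were freed with collagenase, which was used at a higher concentration and for longer on the muscle, so the cell types also differ in preparation. Both were then grown to near confluence and given an induction medium with 3-isobutyl-1-methylxanthine, dexamethasone and insulin for 2 days, then insulin alone for 2 days, then growth medium. Small RNA was sequenced before induction (day 0) and on days 2, 4 and 8, with 3 libraries for each of the 8 groups (BF-0d to BF-8d and IMF-0d to IMF-8d). The study names 3 piglets but the libraries are not tied to single animals, so the p-values measure the spread between these libraries, which may be technical. No genotype or transgene distinguished the groups, and the purity of the preadipocytes was not measured here. In such bulk cultures, fewer cells of a type and less RNA per cell cannot be told apart.

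miRNAs of this family bind transcripts that carry a match to the seed, bases 2 to 8 of the mature strand, and lower their stability and translation. The 3p strands of all 3 genes share a seed, and the DNA methyltransferase DNMT1 is among their known targets. miR-148a has been described as a miRNA that favours adipogenesis, and it is abundant in fat and liver. ssc-miR-148b is hosted by the gene for the coatomer subunit COPZ1 and ssc-miR-152 by its paralog COPZ2, so both lie within genes of vesicle transport.

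The mature strands are shown because their likeness decides which reads can be told apart. Capitals mark the seed, and the letters are DNA letters as read in the genome.
ssc-miR-148a-3p: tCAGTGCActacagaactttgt
ssc-miR-148b-3p: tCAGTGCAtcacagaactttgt
ssc-miR-152: tCAGTGCAtgacagaacttgg
ssc-miR-148a-5p: aAAGTTCTgagacactccgact
ssc-miR-148b-5p: gAAGTTCTgttatacactcaggc
Counted from 1 at the 5′ end, ssc-miR-148a-3p and ssc-miR-148b-3p differed by C9T and T10C and were identical at 20 of 22 positions. From ssc-miR-148a-3p to ssc-miR-152 the differences were C9T, T10G and T20G, and from ssc-miR-148b-3p to ssc-miR-152 they were C10G and T20G. No difference fell within the seed, and the 5p strands shared a seed of their own. Reads mapped without mismatches can therefore be assigned to a member, and each strand had 1 exact copy in the Sscrofa11.1 genome. Of 958 entries with a known sequence, 4 carried the 3p seed. The entry besides the 3 members was novel_miR_547, a predicted miRNA with the same sequence as ssc-miR-148a-3p. It held a mean of 0.132 TPM and at most 0.701 TPM, and it was no member by name.

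The hairpins are shown with the annotated mature strands in capitals, on the strand of the gene.
MIR148A: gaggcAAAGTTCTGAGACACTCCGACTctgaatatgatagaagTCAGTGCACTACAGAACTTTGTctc
MIR148B: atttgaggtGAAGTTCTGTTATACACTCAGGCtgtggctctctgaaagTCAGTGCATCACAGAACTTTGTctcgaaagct
MIR152: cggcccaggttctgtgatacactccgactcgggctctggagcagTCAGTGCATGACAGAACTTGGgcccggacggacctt
In the RefSeq annotation of Sscrofa11.1, MIR148A covers chr18:46415213-46415280 on the plus strand and lies in no other gene. The nearest protein-coding genes were NFE2L3 at 164904 bases on its left and NPVF at 667398 bases on its right. MIR148B covers chr5:19530990-19531069 on the plus strand, in an intron of both 2 annotated transcripts of COPZ1. MIR152 covers chr12:24292249-24292328 on the minus strand, in an intron of both 2 annotated transcripts of COPZ2. Each host gene was on the same strand as its miRNA. Only the 3p strand of MIR152 is annotated and listed in the table, so no arm ratio could be formed for it.

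The libraries held 4954845 to 16863560 reads on miRNAs (median 10614384), and the values are TPM, here meaning reads per 1000000 of those reads. A single read was worth 0.0593 to 0.202 TPM. The members took 1073255 to 4856572 reads for ssc-miR-148a-3p and 71 to 385 for ssc-miR-148b-5p, so the rarest member was read with the least counting precision. The widest 95% Wilson interval for the share of any member in a library was 0.0767 percentage points, which covers counting error only. All values are shares of a single total, so that a large entry that changes moves every other entry in the opposite direction. Marker lists of several cell types were summed as a check of the cells. The muscle list, with 7 entries, held 475 to 2362 TPM, nearly all of it ssc-miR-1. The muscle-specific ssc-miR-206 stayed between 0 and 0.934 TPM and ssc-miR-133a-3p between 7.53 and 30.2 TPM. Red blood cell (3 entries), leukocyte (4), endothelial (2), epithelial (4) and liver (2) entries summed to at most 7.01, 2.60, 90.9, 1.90 and 15.8 TPM. The 10 entries of mesenchymal cells summed to 78759 to 110649 TPM. These lists do not identify adipocytes.

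ssc-miR-148a-3p was the second most abundant entry of the table. It took 17.1% of the miRNA reads on average over the 24 libraries and rose in both cell types by day 8. In BF-0d, its 3 libraries held 112332, 145855 and 103996 TPM. In BF-8d they held 378352, 277444 and 254105 TPM, and in the first of these libraries it was the most abundant miRNA of all. Every BF-8d library was above every BF-0d library. The log2 fold change was 1.32 ± 0.22 (SE), or 2.50-fold (limma, adjusted p = 0.000172), and the call held in all 16 alternatives of processing, in which it ranged from 1.14 to 1.47.

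In IMF cells, the day 0 libraries of ssc-miR-148a-3p held 109891, 160931 and 119974 TPM. The day 8 libraries held 177613, 247593 and 264570 TPM, again with no overlap. The log2 fold change was 0.82 ± 0.24 (SE), or 1.76-fold (limma, adjusted p = 0.0382). This call was less firm: it was lost in 8 of 16 alternatives, including leaving out IMF-0d replicate 1 or 3 or IMF-8d replicate 2 or 3, which gave adjusted p-values of 0.118 to 0.130, and dividing by a total without ssc-miR-148a-3p and ssc-miR-21-5p, which gave 0.60 (limma, adjusted p = 0.132).

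On days 2 and 4 the level stayed near that of day 0. ssc-miR-148a-3p averaged 135795 ± 4165 TPM in BF-2d, 142216 ± 6228 in BF-4d, 157569 ± 16117 in IMF-2d and 147052 ± 22217 in IMF-4d (SD, n = 3). Ordered by mean level, BF-8d came first and IMF-8d next, and these groups overlapped. IMF-8d was apart from IMF-2d, the next in order, and each of the remaining neighbours (IMF-4d, BF-4d, BF-2d, IMF-0d and BF-0d) overlapped. The step from day 4 to day 8 was the only called one, in BF cells (log2 fold change 1.07 ± 0.21, limma, adjusted p = 0.0183). That call was lost without BF-4d replicate 2 (adjusted p = 0.0724 in limma), BF-8d replicate 2 (0.0821) or BF-8d replicate 3 (0.0577). In IMF-4d vs IMF-8d the difference was 0.63 ± 0.23, with no overlap of the libraries and an adjusted p of 0.112 in limma. With a 10 TPM filter or a common fit of all 24 libraries this step was called.

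**Figure D1:**
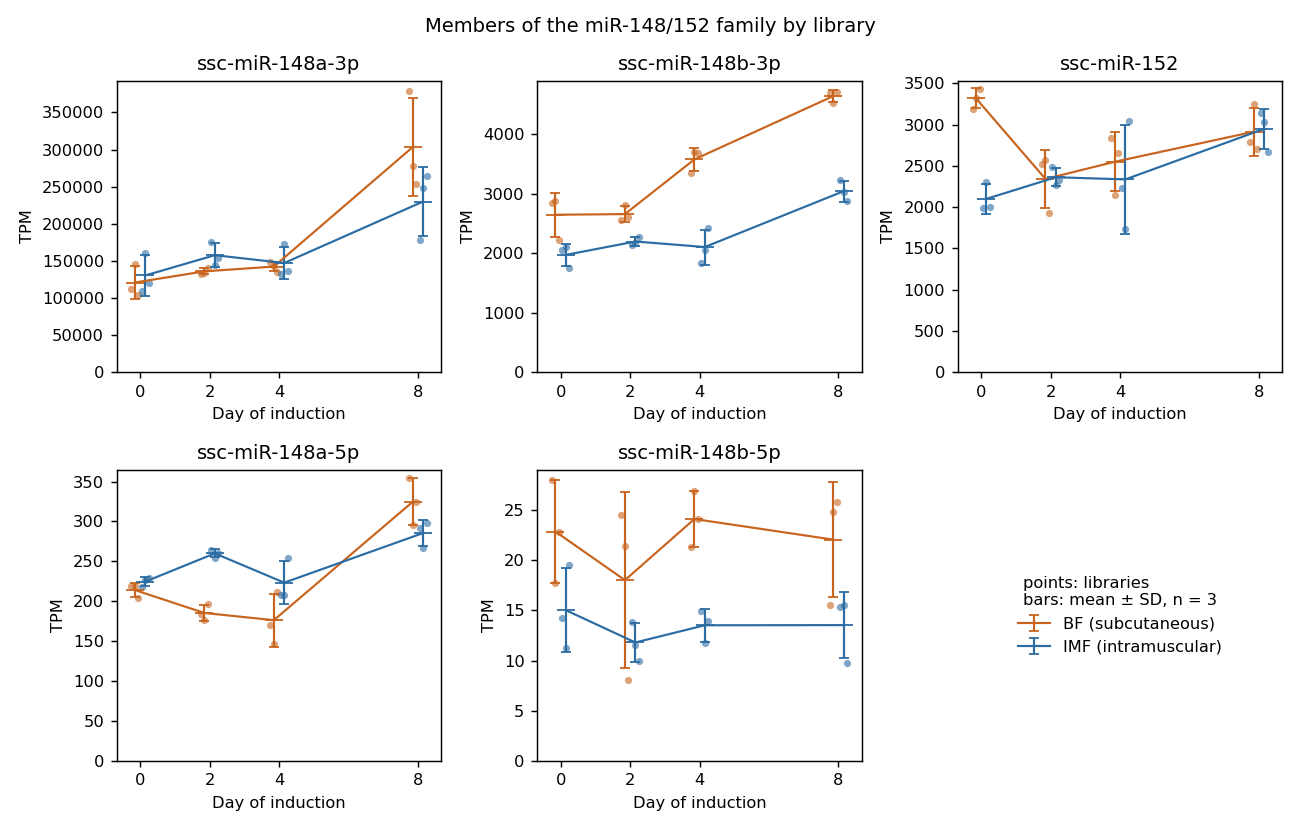
TPM of each member (y axis, from 0) by day of induction (x axis) in BF (orange) and IMF (blue) libraries, with points for libraries and lines and bars for the mean ± SD of 3. ssc-miR-148a-3p stood at 103996 to 175260 TPM up to day 4 and at 177613 to 378352 TPM on day 8.

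Together, the 5 members took 11.0% to 18.0% of the reads up to day 4. On day 8 they took 38.6%, 28.6% and 26.2% in the BF libraries and 18.4%, 25.4% and 27.0% in the IMF libraries. The rise from day 0 to day 8, averaged over the cell types, was 14.3 percentage points (exact two-sided permutation test within cell type, p = 0.005, the smallest that its 400 arrangements allow, adjusted p = 0.0204 over 10 tests). BF and IMF differed by -1.07 points on average within days (IMF minus BF, exact permutation test, adjusted p = 0.545), with the gap at -7.50 points on day 8 and between 0.319 and 2.14 on the other days. ssc-miR-148a-3p supplied 94.6% to 98.0% of the family in every library.

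The other large part of the total was ssc-miR-21-5p, a miRNA abundant in most cultured cells. It took 57.2% ± 2.66 of the reads in BF-0d and 35.5% ± 6.64 in BF-8d, and 57.4% ± 3.92 in IMF-0d and 42.5% ± 2.85 in IMF-8d (SD, n = 3). The BF fall passed the test (log2 fold change -0.71 ± 0.22, limma, adjusted p = 0.0143), and the IMF difference of -0.43 ± 0.19 did not (adjusted p = 0.124 in limma). All remaining entries together took between 28.1% and 36.6% of the reads in every library. Their share was higher on day 8 without overlap, at 33.1% to 33.5% in BF-8d against 29.7% to 30.6% in BF-0d. In IMF cells it was 31.4% to 36.6% on day 8 against 28.1% to 30.4% on day 0. Within the reads left after removing ssc-miR-21-5p, ssc-miR-148a-3p took 25.4% to 31.8% in BF-0d and 42.6% to 52.5% in BF-8d, without overlap. In IMF cells that share was 27.8% to 34.2% on day 0 and 32.3% to 43.7% on day 8, and these ranges overlapped. The summed muscle entries were also highest in BF-8d, at 1324 to 2362 TPM against 819 to 1013 in BF-0d, 910 to 1739 in IMF-0d and 982 to 1632 in IMF-8d, and red blood cell entries were highest in IMF-8d at 6.48 to 7.01 TPM. The muscle-specific ssc-miR-133a-3p was also higher on day 8 than on day 0, at 21.1 to 23.1 TPM in BF-8d against 7.53 to 7.82 in BF-0d and at 24 to 28.3 TPM in IMF-8d against 10.9 to 18.6 in IMF-0d, without overlap. In BF-4d, ssc-miR-133a-3p was at 11.8 to 30.2 TPM and the muscle sum at 1043 to 1526 TPM, both overlapping with BF-8d. The part of these marker entries in the result was not tested.

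**Figure D2:**
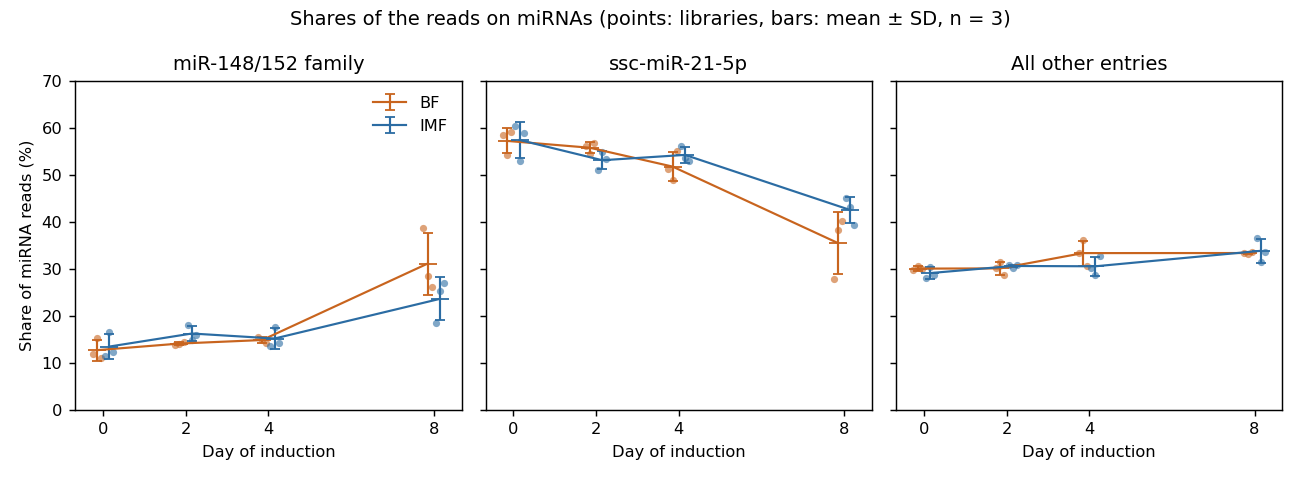
Percent of all miRNA reads (y axis) by day (x axis) for the 5 members together, for ssc-miR-21-5p and for all other entries, with points for libraries and bars for the mean ± SD of 3. The family and ssc-miR-21-5p move in opposite directions on day 8. The remaining entries take 28.1% to 36.6%, with every day 8 library above every day 0 library of the same cell type.

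ssc-miR-148b-3p, which carries the same seed at a far lower level, rose in both cell types as well. Its libraries held 2845, 2871 and 2225 TPM in BF-0d and 4702, 4523 and 4704 TPM in BF-8d. The 2 groups did not overlap, and the log2 fold change was 0.82 ± 0.18 (limma, adjusted p = 0.00174), called in all 16 alternatives. In IMF cells the libraries held 2051, 2111 and 1754 TPM on day 0 and 3232, 3024 and 2874 TPM on day 8. The log2 fold change there was 0.63 ± 0.12 (limma, adjusted p = 0.00890). In 5 of 16 alternatives the IMF fold fell under 1.5, with the total without the 2 largest entries giving 0.41, edgeR 0.53, DESeq2 0.51, and 0.55 and 0.58 without IMF-0d replicate 3 and IMF-8d replicate 1.

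In BF cells, ssc-miR-148b-3p was already higher in BF-4d, at 3347, 3695 and 3692 TPM, than in any BF-2d library, at 2559, 2810 and 2605 TPM. That step did not pass the test (log2 fold change 0.43 ± 0.16, limma, adjusted p = 0.108). IMF-4d, at 1841, 2048 and 2423 TPM, overlapped with IMF-2d and IMF-0d. In order of level, BF-8d, BF-4d and IMF-8d were each apart from the group after them, and from BF-2d on (BF-0d, IMF-2d, IMF-4d and IMF-0d) each group overlapped with the next.

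On each day every IMF library held less ssc-miR-148b-3p than every BF library. The log2 difference (IMF minus BF) was -0.42 ± 0.14 on day 0 (limma, adjusted p = 0.0662) and -0.27 ± 0.09 on day 2 (limma, adjusted p = 0.0932). It passed on day 4, at -0.77 ± 0.20 (limma, adjusted p = 0.00779), and on day 8, at -0.61 ± 0.16 (limma, adjusted p = 0.00696). The 2 endothelial entries were apart in the same direction on these days, at 53.6 to 86.4 TPM in BF-4d against 18.7 to 30.9 in IMF-4d and at 51.2 to 90.9 TPM in BF-8d against 24.6 to 34.8 in IMF-8d. On day 4 the muscle entries were also apart in that direction, at 1043 to 1526 TPM in BF against 696 to 985 in IMF. So were the red blood cell entries, at 1.52 to 3.77 against 0.284 to 0.772 TPM. On day 8 the muscle entries overlapped and the red blood cell entries were higher in IMF. The part of these entries in the result was not tested. The size of the ssc-miR-148b-3p difference depended on the scaling. With median-of-ratios size factors in place of the total it was -0.34 on day 4 and -0.29 on day 8, with edgeR -0.31 and -0.27 and with DESeq2 -0.34 and -0.33, with adjusted p-values of 0.10 to 0.238, while the direction stayed the same. The day 4 call was also lost without IMF-4d replicate 1 (-0.68, limma, adjusted p = 0.0501) and the day 8 call without IMF-8d replicate 3 (-0.57, under the fold limit).

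ssc-miR-152 was called in no comparison of days. In BF cells it was highest by mean before induction, at 3192, 3323 and 3436 TPM in BF-0d, and stood at 2516, 2575 and 1930 TPM in BF-2d. These groups did not overlap, but the log2 fold change of -0.51 ± 0.14 did not pass the test (limma, adjusted p = 0.0917). BF-8d held 2783, 3248 and 2707 TPM, which overlapped with BF-0d (log2 fold change -0.19 ± 0.18, limma, adjusted p = 0.413).

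In IMF cells ssc-miR-152 had its lowest mean before induction, with libraries at 1989, 2305 and 2004 TPM. These overlapped with IMF-2d and IMF-4d, and the lowest IMF library was IMF-4d replicate 2, at 1735 TPM. Every IMF-8d library was above every IMF-0d library, at 3137, 3033 and 2673 TPM. The log2 fold change of 0.49 ± 0.12 passed the false discovery rate (limma, adjusted p = 0.0217) but not the fold limit of 1.5. BF-0d was apart from IMF-8d, the next group in order, and all remaining neighbours overlapped.

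At day 0, ssc-miR-152 was the called member between the cell types, with IMF lower by a log2 difference of -0.66 ± 0.09 (limma, adjusted p = 0.00418) and no overlap. Under median-of-ratios scaling the difference was -0.50, with edgeR -0.42 and with DESeq2 -0.46, each under the fold limit. On days 2, 4 and 8 the differences were 0.02 ± 0.13, -0.15 ± 0.24 and 0.02 ± 0.16, all with overlapping libraries. The sign of the day 4 difference turned positive under median-of-ratios scaling, edgeR and DESeq2.

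The 5p strands, which are the minor products of their hairpins, were far rarer. ssc-miR-148a-5p held 219, 220 and 204 TPM in BF-0d and 354, 295 and 325 TPM in BF-8d, without overlap. It rose in BF cells (log2 fold change 0.60 ± 0.18, limma, adjusted p = 0.0138), just past the fold limit. The call was lost in 6 of 16 alternatives, with the fold change at 0.41 under median-of-ratios scaling, 0.44 with the total without the 2 largest entries, 0.48 with edgeR and 0.44 with DESeq2, and at 0.56 and 0.53 without BF-0d replicate 3 and BF-8d replicate 1. In IMF cells it held 218, 227 and 229 TPM on day 0 and 291, 267 and 298 TPM on day 8, and the log2 fold change of 0.34 ± 0.10 was under the fold limit (limma, adjusted p = 0.0332).

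Between those days, ssc-miR-148a-5p differed between the cell types on day 2. BF-2d held 184, 176 and 196 TPM and IMF-2d held 265, 254 and 261 TPM. The BF libraries were all below their day 0 values and the IMF libraries all above theirs. The log2 difference of 0.49 ± 0.10 (IMF minus BF, limma, adjusted p = 0.0302) was under the fold limit, and with median-of-ratios scaling, edgeR and DESeq2 it was 0.63, 0.66 and 0.62 and passed. The muscle entries were apart in the same direction on day 2, at 475 to 544 TPM in BF-2d against 814 to 1065 in IMF-2d. So were the liver entries, at 3.98 to 8.29 against 10.4 to 14.7 TPM. The part of these entries in the result was not tested. The order of the group means of ssc-miR-148a-5p was BF-8d, IMF-8d, IMF-2d, IMF-0d, IMF-4d, BF-0d, BF-2d and BF-4d, where IMF-8d from IMF-2d, IMF-2d from IMF-0d and BF-0d from BF-2d were apart.

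ssc-miR-148b-5p was the rarest member, at 17.6 TPM on average, and changed over no step of differentiation by the test. It held 28.0, 17.7 and 22.8 TPM in BF-0d and 15.5, 24.8 and 25.8 TPM in BF-8d. The IMF libraries held 14.3, 11.3 and 19.5 TPM on day 0 and 15.3, 15.5 and 9.76 TPM on day 8. Within each cell type these values overlapped. All neighbours in the order of its group means overlapped, and BF-2d replicate 3, at 8.07 TPM from 71 reads, was the lowest of all 24 libraries.

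Between the cell types, ssc-miR-148b-5p was called on day 4, where BF held 21.3, 26.9 and 24.1 TPM and IMF 14.9, 11.7 and 13.9 TPM (log2 difference -0.79 ± 0.22, limma, adjusted p = 0.0134). It was also called on day 8 (-0.66 ± 0.25, limma, adjusted p = 0.0478), where 1 BF library lay within the IMF range. The endothelial entries were higher in BF on both days, and the muscle and red blood cell entries on day 4, as given for ssc-miR-148b-3p. Their part was not tested here either. The day 8 call was lost in 12 of 16 alternatives, among them each left-out library but BF-8d replicate 1, with values of -0.77 to -0.46. The day 4 call was lost in 6, with -0.37 to -0.41 under edgeR, median-of-ratios scaling and DESeq2, and without BF-4d replicate 2 (-0.71) or IMF-4d replicate 2 (-0.70).

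Read against all entries, the family was called about as often as the table. Called means a false discovery rate under 0.05 and a fold change above 1.5, and the 430 entries that averaged 1 TPM or more were tested, with all 5 members among them. From day 0 to day 8, 3 of 5 members were called in BF cells, where 42.8% of all entries were called (27.9% higher and 14.9% lower on day 8). In IMF cells it was 2 of 5, where 30.5% were called (19.8% higher and 10.7% lower). All 5 of those calls were higher on day 8. BF-4d vs BF-8d, where 3.02% of entries were called, gave 1 of 5.

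The shorter steps called few entries of any kind. No member was called by limma in BF-0d vs BF-2d (4.19% of entries called), BF-2d vs BF-4d (6.05%), IMF-0d vs IMF-2d (0%), IMF-2d vs IMF-4d (0%) and IMF-4d vs IMF-8d (13.0%). At an unadjusted p under 0.05, these comparisons had 1, 1, 1, 0 and 3 members, and edgeR and DESeq2 called 0 in each. In the 2 IMF steps with no called entry at all, 68 and 65 of 430 entries had an unadjusted p under 0.05, edgeR called 7 and 1, and DESeq2 called 9 and 2.

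Between the cell types, 1 member was called on day 0 (29.3% of entries called), 0 on day 2 (12.3%), 2 on day 4 (36.3%) and 2 on day 8 (37.2%). The 5 calls were all lower in IMF, which depended on the scaling. With median-of-ratios factors, edgeR and DESeq2 all 5 were lost, and ssc-miR-148a-5p was called higher in IMF on day 4, at 0.78, 0.78 and 0.76 (adjusted p = 0.0225 in limma, 0.0276 in edgeR and 0.00781 in DESeq2), as it was on day 2. By the main test its day 4 difference was 0.35 ± 0.23 (limma, adjusted p = 0.272), with overlapping libraries. On day 2, limma gave 2 members an unadjusted p under 0.05, and edgeR and DESeq2 called 1 each. These comparisons share their groups with the steps within a cell type, so they are not independent of them. The scaling also moved the whole table: median-of-ratios factors shifted the median log2 difference by 0.34 on day 4 and 0.25 on day 8 relative to the total, and raised the share of called entries that were higher in IMF from 32 of 156 to 52 of 120 and from 52 of 160 to 83 of 147. For BF-0d vs BF-8d they shifted the median by -0.15 and changed the called entries that were higher from 120 of 184 to 97 of 185. On days 0 and 2, they moved the called entries that were higher in IMF from 58 of 126 to 63 of 101 and from 25 of 53 to 36 of 60. The total without ssc-miR-148a-3p and ssc-miR-21-5p shifted the median by -0.16 in IMF-0d vs IMF-8d and by -0.12 in BF-0d vs BF-8d, with 55 of 127 called entries higher in place of 85 of 131 in IMF, and 97 of 178 in BF. Under both scalings the 5 member calls between day 0 and day 8, from 3 members, kept their direction, but 2 calls were lost with median-of-ratios factors (ssc-miR-148a-5p in BF and ssc-miR-148a-3p in IMF) and 3 with the reduced total (these and ssc-miR-148b-3p in IMF).

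**Figure D3:**
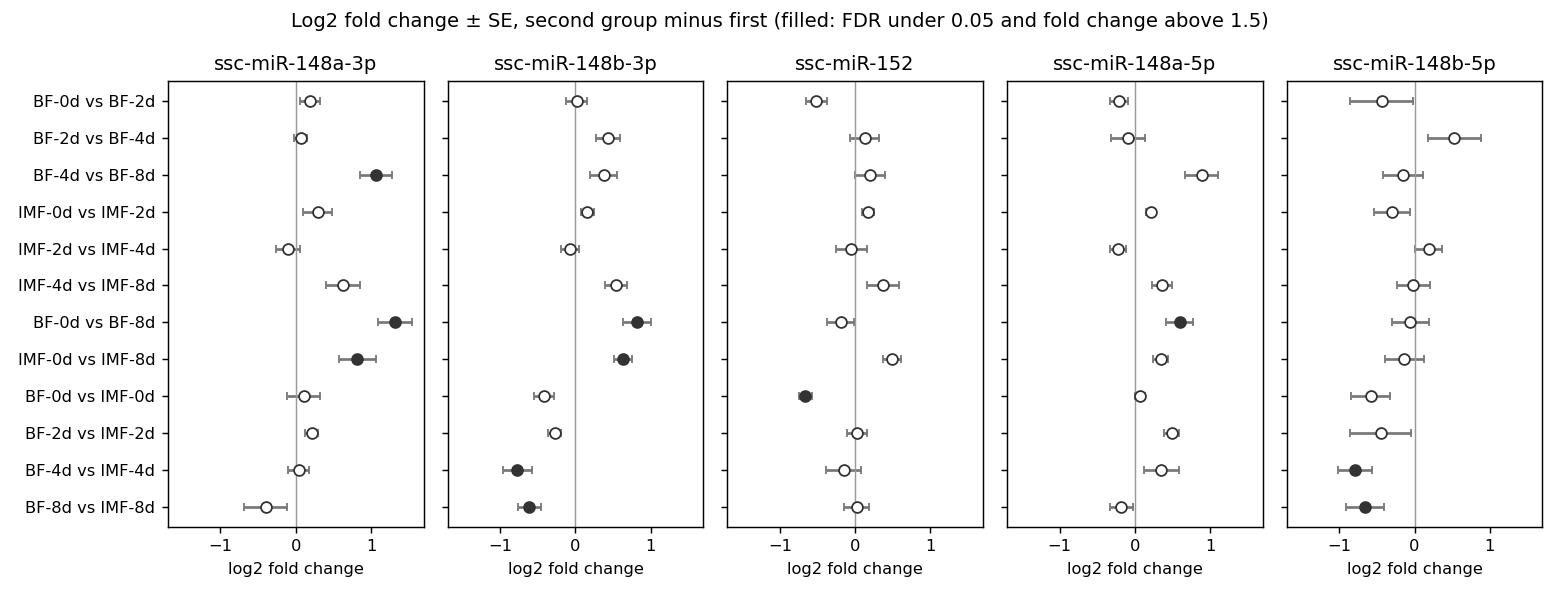
Log2 fold change ± SE (x axis, second group minus first) of the 5 members in the 12 comparisons (y axis), with filled points where the false discovery rate was under 0.05 and the fold change above 1.5. Filled points lie right of 0 in the day comparisons and left of 0 between the cell types, where median-of-ratios scaling, edgeR and DESeq2 removed these calls and called ssc-miR-148a-5p higher in IMF on days 2 and 4.

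The test of whether the course over the days differed between BF and IMF called no member (source by day interaction, moderated F test in limma over all 24 libraries), where 31.6% of all entries passed. The unadjusted p was under 0.05 for 2 members, ssc-miR-148a-5p (adjusted p = 0.0669) and ssc-miR-152 (adjusted p = 0.0919), both from limma. edgeR called both of these, with adjusted p-values of 0.0446 and 0.031. For ssc-miR-148a-3p and ssc-miR-148b-3p the adjusted p was 0.201 each in limma, so a different course was not shown for them.

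For the change from day 0 to day 8 alone, no member passed by limma and 20.7% of entries did. ssc-miR-152 came closest, with its change in IMF exceeding that in BF by 0.68 ± 0.25 (log2, limma, adjusted p = 0.0521), and it was the 1 member with an unadjusted p under 0.05. It passed with a pseudocount of 0.1 (0.68, limma, adjusted p = 0.0493), under median-of-ratios scaling (0.84, limma, adjusted p = 0.00981) and in edgeR (0.66, adjusted p = 0.035). For ssc-miR-148a-3p the difference was -0.50 ± 0.25 (limma, adjusted p = 0.156).

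Ratios within a library do not depend on the total. The ratio of the 3p to the 5p strand of ssc-miR-148a was 510 to 664 in BF-0d and 783 to 1068 in BF-8d, without overlap. In IMF cells it was 504 to 709 on day 0 and 610 to 926 on day 8, and these ranges overlapped. It was higher on day 8 by 0.60 on the log2 scale, averaged over the cell types (exact two-sided permutation test within cell type, p = 0.01, adjusted p = 0.0204 over the 10 tests of ratios and shares). The ratio of the 3p to the 5p strand of ssc-miR-148b rose by 0.83, from 89.9 to 187 on day 0 to 182 to 303 on day 8 (exact permutation test, adjusted p = 0.0204). The differences of the arm ratios between IMF and BF within days did not pass the test, at -0.19 for ssc-miR-148a and 0.14 for ssc-miR-148b (exact permutation tests, adjusted p = 0.0818 and 0.482).

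The balance between ssc-miR-148b-3p and ssc-miR-152 differed between the cell types. In BF-0d the ratio was 0.891, 0.864 and 0.647, and in BF-8d it was 1.69, 1.39 and 1.74. IMF-0d held 1.03, 0.916 and 0.875 and IMF-8d 1.03, 0.997 and 1.08. All BF-0d libraries were below 1 and all BF-8d libraries above it, while the IMF values of these days stayed between 0.875 and 1.08. On the log2 scale the ratio differed by -0.33 between IMF and BF (exact permutation test within days, p = 0.0102, adjusted p = 0.0204), with differences of -0.30, -0.62 and -0.63 on days 2, 4 and 8 and of 0.24 on day 0. On day 2 BF held 1.02 to 1.35 and IMF 0.860 to 0.981, and on day 8 the groups were likewise apart. On day 4 BF held 1.18 to 1.72 and IMF 0.797 to 1.18, and they overlapped, as on day 0. Leaving out any replicate number in all groups raised the adjusted p to 0.0794 to 0.13 in the exact permutation test. From day 0 to day 8 it rose by 0.58 on average (exact permutation test, adjusted p = 0.0250), made up of 1.01 in BF and 0.14 in IMF, a gap that was not tested.

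The weight of ssc-miR-148a-3p against its seed partners, taken as its ratio to the sum of ssc-miR-148b-3p and ssc-miR-152, ran from 18.4 to 50.5. It was 0.36 higher in IMF on the log2 scale (exact permutation test within days, p = 0.00698, adjusted p = 0.0204), with the groups apart on days 0, 2 and 4. Without replicate 2 or 3 of every group the adjusted p was 0.139 and 0.13 in the exact permutation test, and without replicate 1 it was 0.0154. On day 8 the difference was -0.06 and the groups overlapped. From day 0 to day 8 the ratio rose by 0.62 on average (exact permutation test, adjusted p = 0.0286), made up of 0.98 in BF and 0.26 in IMF, a gap that was not tested. In BF cells it was 18.4 to 23.6 on day 0 and 34.3 to 50.5 on day 8, without overlap. In IMF cells it was 27.2 to 36.4 and 27.9 to 47.7, and these ranges overlapped. These ratios rest on 3 libraries a group, and an exact test of a single day cannot give a p under 0.1.

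**Figure D4:**
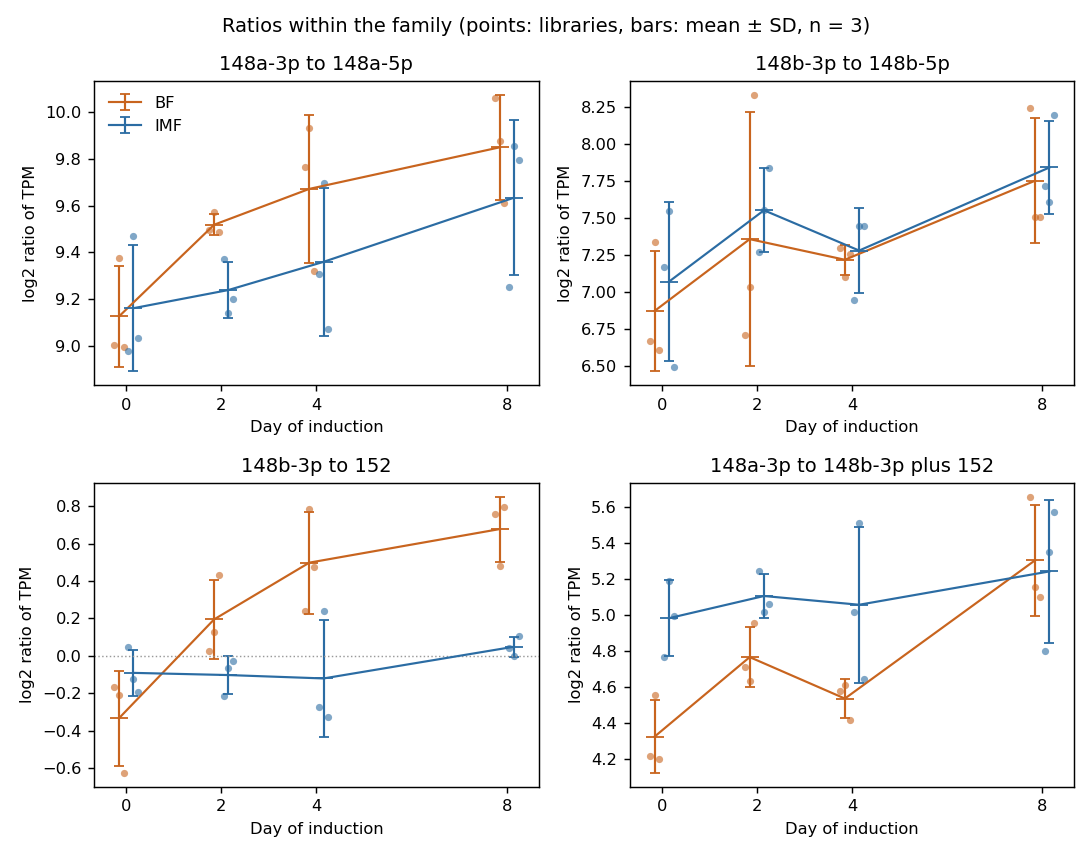
Log2 ratio of TPM within each library (y axis) by day (x axis) for the arms of ssc-miR-148a and ssc-miR-148b, for ssc-miR-148b-3p to ssc-miR-152 (dotted line at 0) and for ssc-miR-148a-3p to the other 3p strands, with points for libraries and bars for the mean ± SD of 3. The ratio of ssc-miR-148b-3p to ssc-miR-152 rises from below 0 to above 0 in BF and stays between -0.12 and 0.05 on average in IMF.

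Other miRNAs of adipogenesis moved in both directions. Of 25 entries described as favouring adipogenesis, 22 were tested, and 7 were higher and 2 lower on day 8 in BF cells and 8 higher and 0 lower in IMF cells. Over all 430 entries, 27.9% were called higher and 14.9% lower in BF and 19.8% and 10.7% in IMF. Their median log2 fold changes were 0.18 and 0.18, against 0.15 and 0.07 for all entries. The hypoxia-responsive ssc-miR-210 rose by 4.71 ± 0.21 in BF and 1.90 ± 0.17 in IMF cells (log2 fold change ± SE). ssc-miR-30b-5p rose by 2.93 ± 0.20 and 2.78 ± 0.17, ssc-miR-30a-5p by 1.19 ± 0.18 and 1.38 ± 0.11, and ssc-miR-30a-3p by 1.04 ± 0.24 and 1.35 ± 0.15.

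Of 16 entries described as restraining adipogenesis, 14 were tested, and 6 were higher and 6 lower on day 8 in BF cells and 1 higher and 1 lower in IMF cells, beside the same shares of all entries (27.9% and 14.9% in BF, 19.8% and 10.7% in IMF). The medians were 0.13 and -0.25. In BF cells ssc-miR-221-5p and ssc-miR-222, which come from a shared cluster, rose by 2.87 ± 0.31 and 1.69 ± 0.26. ssc-miR-138 rose there by 2.87 ± 0.25, from 1.25 to 15.2 TPM, and ssc-miR-145-3p fell by 1.68 on the log2 scale. These entries are set beside the family by name only, and no test compared the lists.

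Among 185 known entries averaging 10 TPM or more, the ones most like each 3p strand were found by Pearson's r of log2(TPM + 1) over the 24 libraries, which share their totals and groups. For ssc-miR-148a-3p they were ssc-miR-151-3p (r = 0.857), ssc-miR-101 (0.825) and ssc-miR-769-5p (0.774). For ssc-miR-148b-3p they were ssc-miR-16 (0.942), ssc-miR-155-5p (0.939) and ssc-miR-218-5p (0.938). For ssc-miR-152 they were ssc-miR-151-5p (0.799), ssc-miR-374a-5p (0.703) and ssc-miR-26a (0.678). Between the members, r was 0.725 for the 2 arms of ssc-miR-148a, 0.637 for ssc-miR-148a-3p and ssc-miR-148b-3p, 0.487 for ssc-miR-148b-3p and ssc-miR-152, and 0.217 for ssc-miR-148a-3p and ssc-miR-152.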

How the data were processed

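Small RNA was sequenced as single-end reads of 50 bases. Per the study's methods, the authors mapped reads without mismatches to Sscrofa11.1 with Bowtie (version not given in the sources used here), removed those of tRNA, rRNA, snRNA and snoRNA, matched known miRNAs to miRBase and predicted further ones with miRDeep2. The submitters' processing notes also name DESeq2. The deposited TPM values are reads per 1000000 (RPM) of the reads on listed miRNAs, so each library sums to 1000000. In the 24 libraries values lay within 0.000452 of whole reads, which gave the depth. In 2 IMF-2d libraries a read is worth close to 0.1 TPM, so whole reads are less certain there, and edgeR and DESeq2 rest on them too. Members and lists were chosen with earlier results of these data known.

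limma 3.58.1 (R 4.3.3) with a mean-dependent prior was run on log2(TPM + 1) for the 430 entries averaging 1 TPM or more, the 6 libraries of 2 groups at a time, with Benjamini-Hochberg adjustment over all entries. Fold changes are on that scale and understate changes of low entries. edgeR 4.0.16 and DESeq2 1.42.0 were run on the recovered reads as alternatives. Exact permutation tests enumerated every arrangement, in Python 3.11.15 and NumPy 2.4.6; a single 3 against 3 comparison cannot go below p = 0.1. Further settings were no filter or a 10 TPM filter, a pseudocount of 0.1, all 24 libraries in a common fit, a replicate block, other scalings and each library left out. Sequences were matched exactly to the RefSeq genome and annotation of Sscrofa11.1. Named are the members, ssc-miR-21-5p, entries with a member's 3p seed, the 3 entries most like each 3p strand and up to 4 called entries of largest change per adipogenesis list. From the muscle list ssc-miR-1, ssc-miR-206 and ssc-miR-133a-3p are named as well. Scripts were tested on simulated data. Replicate numbers did not mark shared animals in the labels, and all same-numbered pairs correlated above 0.1 in 1 of 12 comparisons, BF-0d vs IMF-0d.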

Additional observations from a re-analysis of the deposited data

Results flagged for a closer look

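ssc-miR-148a-5p moved in opposite directions from day 0 to day 2 in the 2 cell types: every BF-2d library was below every BF-0d library (log2 fold change -0.21) and every IMF-2d library above every IMF-0d library (0.21). Neither change passed the test on its own, and this difference between the steps was not tested; over all days, the interaction had an adjusted p of 0.0669 in limma and 0.0446 in edgeR.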

How the results depend on the processing

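For 65 signed differences of single members, 1000 values were computed under alternatives, of which 952 kept their direction. With the 40 values of the 5 interaction tests, which have no direction, 52 lost a call and 24 gained one. Depth limits only ssc-miR-148b-5p, and with 3 libraries a group each library carries weight. Of 36 pairs with the same replicate number, 11 correlated above 0.1 (r of -0.33 to 0.51) and 11 correlated best with their own number. In BF-0d vs IMF-0d all 3 pairs exceeded 0.1 (0.188, 0.509 and 0.205), and there the replicate block kept the call of ssc-miR-152. In each of the other 11 comparisons at least 1 pair did not exceed 0.1, and whether any pair shares an animal is not known. In BF-4d vs IMF-4d the values were 0.137, 0.257 and -0.0493. The replicate block changed the number of members called in 1 comparison, BF-8d vs IMF-8d, from 2 to 1, and the number of all entries called from 53 to 9 in BF-2d vs IMF-2d, from 18 to 0 in BF-0d vs BF-2d and from 26 to 42 in BF-2d vs BF-4d.

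Number of members called. In BF-4d vs BF-8d (1 called) it was 0 with no filter and 2 with a 10 TPM filter, a common fit of all libraries or DESeq2, and 0 to 2 with a library left out. In IMF-4d vs IMF-8d (0) it was 1 with a 10 TPM filter or a common fit (ssc-miR-148a-3p) or with the false discovery rate alone (ssc-miR-148b-3p), and 0 to 1 with a library left out. In BF-0d vs BF-8d (3) it was 2 to 3 with a library left out. In IMF-0d vs IMF-8d (2) it was 1 with a pseudocount of 0.1, no filter, median-of-ratios scaling, edgeR or DESeq2, 0 with the total without ssc-miR-148a-3p and ssc-miR-21-5p, 4 by the false discovery rate alone, and 0 to 2 with a library left out. In BF-0d vs IMF-0d (1) it was 0 with median-of-ratios scaling, edgeR or DESeq2. In BF-2d vs IMF-2d (0) it was 1 with those 3 settings or the false discovery rate alone, and 0 to 1 with a library left out. In BF-4d vs IMF-4d (2) it was 1 with no filter, and 1 with median-of-ratios scaling, edgeR or DESeq2, where both calls were lost and ssc-miR-148a-5p, higher in IMF, was called in their place, and 1 to 2 with a library left out. In BF-8d vs IMF-8d (2) it was 1 with a pseudocount of 0.1, no filter or a common fit, 0 with median-of-ratios scaling, edgeR or DESeq2, and 0 to 2 with a library left out. The interaction (0) called 1 member with median-of-ratios scaling and 2 with edgeR. Of all entries tested, the number called moved by over 1.5 times with the following settings. Without a filter it was 5 in place of 18 (BF-0d vs BF-2d), 0 for 26 (BF-2d vs BF-4d), 3 for 13 (BF-4d vs BF-8d), 28 for 56 (IMF-4d vs IMF-8d), 70 for 131 (day 0 to day 8 in IMF), and 76 for 126, 2 for 53 and 50 for 156 between the cell types on days 0, 2 and 4. With a 10 TPM filter, which tests 224 entries, it was 101 for 160 (BF-8d vs IMF-8d), 105 for 184 (day 0 to day 8 in BF) and 76 for 131 (day 0 to day 8 in IMF). A common fit gave 46, 104 and 81 for the steps in BF, median-of-ratios scaling 35 for BF-0d vs BF-2d, edgeR 56 and 17 for the first 2 BF steps, and DESeq2 56, 54 and 24 for all 3. The first 2 IMF steps, with 0 called, had at most 9 and 2, both with DESeq2. With a library left out it was 0 to 42, 2 to 78 and 0 to 30 for the BF steps (18, 26 and 13), 0 to 12 for IMF-0d vs IMF-2d (0, and 12 without IMF-0d replicate 2), 32 to 62 for IMF-4d vs IMF-8d (56, and 32 without IMF-8d replicate 2) and 2 to 85 for BF-2d vs IMF-2d (53). The highest counts came without BF-2d replicate 3 (42 and 85) and BF-4d replicate 1 (78 and 30), so the shares of called entries in these short steps rest on single libraries.

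Some uncalled differences changed sign. In BF-2d vs BF-4d, ssc-miR-148a-3p was -0.050 with median-of-ratios scaling, -0.083 with the total without the 2 largest entries, -0.14 with edgeR and -0.13 with DESeq2, and ssc-miR-152 was -0.024 with that total, -0.051 with edgeR and -0.045 with DESeq2. In IMF-2d vs IMF-4d, with median-of-ratios scaling, edgeR and DESeq2, ssc-miR-148a-3p was 0.065, 0.064 and 0.040, ssc-miR-148b-3p 0.10, 0.082 and 0.062, and ssc-miR-152 0.12, 0.11 and 0.093. With the same settings ssc-miR-152 was 0.27, 0.31 and 0.28 in BF-4d vs IMF-4d and ssc-miR-148a-5p 0.14, 0.16 and 0.10 in BF-8d vs IMF-8d. The day 0 to day 8 difference of ssc-miR-148b-5p was 0.076 with median-of-ratios scaling. With a library left out, the ranges that crossed 0 were -0.11 to 0.078 for ssc-miR-148b-3p and -0.72 to 0.028 for ssc-miR-148b-5p in BF-0d vs BF-2d, -0.23 to 0.037 for ssc-miR-148a-5p and -0.0080 to 0.24 for ssc-miR-152 in BF-2d vs BF-4d, -0.18 to 0.020 for ssc-miR-148b-3p and -0.26 to 0.14 for ssc-miR-152 in IMF-2d vs IMF-4d, -0.057 to 0.25 for ssc-miR-148a-3p in BF-0d vs IMF-0d, and -0.082 to 0.11 for ssc-miR-148a-3p and -0.36 to 0.041 for ssc-miR-152 in BF-4d vs IMF-4d. For ssc-miR-152 they were -0.11 to 0.10 in BF-2d vs IMF-2d and -0.032 to 0.10 in BF-8d vs IMF-8d. For ssc-miR-148b-5p they were -0.28 to 0.074 in BF-4d vs BF-8d, -0.12 to 0.18 in IMF-4d vs IMF-8d, -0.22 to 0.17 in BF-0d vs BF-8d, -0.31 to 0.068 in IMF-0d vs IMF-8d and -0.57 to 0.44 for the day 0 to day 8 difference.

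With 1 replicate number left out of every group, the day 8 minus day 0 differences were 0.55 to 0.68 for the arms of ssc-miR-148a, 0.59 to 1.19 for those of ssc-miR-148b, 0.43 to 0.66 for ssc-miR-148b-3p to ssc-miR-152, 0.56 to 0.74 for ssc-miR-148a-3p to its seed partners (log2) and 13.0 to 15.9 points for the share. None of these exact tests could pass, since 2 libraries a group allow no p under 0.0556. IMF minus BF was -0.35 to -0.30 for ssc-miR-148b-3p to ssc-miR-152 (adjusted p of 0.0794 to 0.13 in exact permutation tests), 0.28 to 0.46 for ssc-miR-148a-3p to its partners (0.0154 to 0.139) and -2.06 to 0.68 points for the share, which changed sign. Ratios of group means in place of mean ratios moved no value by more than the SD between libraries. The causes of these shifts were not tested.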
